A study of Homo sapiens with 9 samples.

Results

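BMP and TGF-β response genes are genes that answer to, carry or start signals of bone morphogenetic proteins (BMP) and transforming growth factor-β (TGF-β). The 10 described here were taken by symbol from the gene table, 10 of its 59452 genes: *ID1*, *ID2*, *ID3* and *ID4*, the SMAD genes *SMAD3*, *SMAD6* and *SMAD7*, the pseudoreceptor gene *BAMBI*, and the ligand genes *BMP7* and *TGFB1*. RNA-seq was done on MDA-MB-453, an established human breast cancer cell line that the labels call triple-negative and WT. The 9 libraries formed 3 conditions with 3 libraries each, all taken after 48 hours: attached culture with vehicle (DMSO), suspended culture with vehicle, and suspended culture with 10 µM AT0174, an inhibitor of the tryptophan-degrading enzymes TDO2 and IDO1. Suspension was forced by a poly-HEMA coating that keeps cells off the plastic. The study's RNA-seq methods give DMSO and 10 µM for another cell line, BT549. For MDA-MB-453 those methods describe the culture and name no agent or dose. All values come from 1 cell line, all comparisons of AT0174 with its own vehicle were made in suspended cells, and attached cells with AT0174 are not analysed here.

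BMP and TGF-β ligands bring together type I and type II receptor kinases, which phosphorylate receptor-activated SMAD proteins in the cytoplasm. SMAD1, SMAD5 and SMAD9 carry BMP signals, SMAD2 and SMAD3 carry TGF-β and activin signals, and both sets bind SMAD4 before they act on genes in the nucleus. The ID genes are textbook targets of BMP signals, and the ID proteins hold back basic helix-loop-helix transcription factors by pairing with them, while SMAD6, SMAD7 and BAMBI are induced by the pathway and dampen it.

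For the 5 genes whose level differed between suspended and attached vehicle cells, the 250 bases before the RefSeq transcription start are printed 5′ to 3′ (GRCh38.p14; for *SMAD7* the outermost of its 3 start sites). They are shown because these 5 genes moved in opposite directions, and capitals mark SMAD-related motifs.
ID1 (chr20:31605039-31605288, plus strand): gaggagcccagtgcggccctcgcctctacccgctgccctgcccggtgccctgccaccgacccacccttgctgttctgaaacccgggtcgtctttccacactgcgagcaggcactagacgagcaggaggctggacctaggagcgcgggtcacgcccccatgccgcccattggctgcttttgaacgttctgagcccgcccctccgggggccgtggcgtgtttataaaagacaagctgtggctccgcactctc
ID2 (chr2:8681806-8682055, plus strand): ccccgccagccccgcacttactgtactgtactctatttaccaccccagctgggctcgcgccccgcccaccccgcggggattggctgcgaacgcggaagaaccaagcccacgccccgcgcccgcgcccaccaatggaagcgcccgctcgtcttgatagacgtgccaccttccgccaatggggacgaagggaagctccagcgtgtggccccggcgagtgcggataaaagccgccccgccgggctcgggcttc
ID3 (chr1:23559502-23559751, minus strand): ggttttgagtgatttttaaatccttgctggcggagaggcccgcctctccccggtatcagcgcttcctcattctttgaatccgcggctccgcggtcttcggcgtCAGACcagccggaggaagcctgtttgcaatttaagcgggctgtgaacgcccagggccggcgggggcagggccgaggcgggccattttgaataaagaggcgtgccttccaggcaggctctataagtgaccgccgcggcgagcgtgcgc
SMAD7 (chr18:48950966-48951215, minus strand): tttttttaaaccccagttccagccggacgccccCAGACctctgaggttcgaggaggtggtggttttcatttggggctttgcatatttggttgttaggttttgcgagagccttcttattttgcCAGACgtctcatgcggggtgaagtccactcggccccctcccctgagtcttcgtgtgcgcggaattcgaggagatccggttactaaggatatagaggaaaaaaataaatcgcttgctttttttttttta
SMAD6 (chr15:66701986-66702235, plus strand): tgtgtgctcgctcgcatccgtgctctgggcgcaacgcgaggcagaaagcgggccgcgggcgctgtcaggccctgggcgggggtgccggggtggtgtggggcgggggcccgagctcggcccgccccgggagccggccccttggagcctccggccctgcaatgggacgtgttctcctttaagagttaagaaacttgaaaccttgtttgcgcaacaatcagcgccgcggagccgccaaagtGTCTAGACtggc

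The search ran over RefSeq windows from 250 bases before to 50 bases after each start, which were at hand for 9 of the 10 genes, all but *BMP7*. The motifs were GGCGCC, a GC-rich element bound by SMAD1 and SMAD5, GTCTAGAC, the palindrome bound by SMAD3 and SMAD4, and CAGAC, the SMAD box, each on both strands. None of the motifs contains another. The palindrome was matched in 0.202% of all 35116 windows, GGCGCC in 19.2% and CAGAC in 45.3%. *SMAD6* was the single member with the palindrome, beginning 12 bases before its start, and it held neither of the other motifs. The outermost *SMAD7* window held 2 matches of CAGAC and the *ID3* window 1, and the *ID1* and *ID2* windows held no match of any motif. Among the genes that did not pass the test, *BAMBI* held 3 matches of GGCGCC and 2 of CAGAC, the outermost *SMAD3* window 2 and 1, its inner windows 0 to 4 of CAGAC, *ID4* 1 of CAGAC, and *TGFB1* none of any motif. The other genes lie on chromosome 6 (*ID4*, 19837370 to 19842197), chromosome 15 (*SMAD3*, 67063763 to 67195173), chromosome 10 (*BAMBI*, 28677510 to 28682932), chromosome 20 (*BMP7*, 57168753 to 57266641) and chromosome 19 (*TGFB1*, 41301587 to 41353922) in GENCODE release 44 on GRCh38. A match in these windows is a description of letters and not evidence of binding, and enhancers further away were not searched.

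The libraries held 36649997 to 48019126 estimated counts. Epithelial marker genes were abundant, with a summed level of 2640 to 3270 TPM (counts per transcript length, scaled to a fixed total per library) over *EPCAM*, *KRT8*, *KRT18*, *KRT19* and *CDH1* in the 9 libraries, and 6 markers of androgen receptor-positive luminal breast cells summed to 2220 to 2590 TPM. *ESR1* and *PGR*, the hormone receptor genes that triple-negative cells lack, together stayed between 0.0233 and 0.321 TPM. *ERBB2*, the HER2 gene, which is among those 6 luminal markers, was abundant at 398 to 436 TPM. Triple-negative also refers to HER2, whose protein was not measured here, so these RNA levels do not settle that label. Leukocyte markers summed to at most 0.128 TPM and endothelial markers to at most 0.209 TPM. Of 6 fibroblast markers, *COL1A1* alone reached 10 counts in a library, and the list summed to 51.6 to 66.1 TPM. Counts of mitochondrial genes made up 7.56% to 9.32% of the attached libraries, 4.05% to 4.34% of the suspended vehicle libraries and 3.73% to 5.51% of those with AT0174.

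Compared per length, *ID1*, *ID2* and *ID3* stood far above the other genes, *ID4* included. *ID2* was highest, with 641 to 922 TPM over the 9 libraries and a rank of 170 among all genes by its mean. *ID1* followed with 435 to 601 TPM and *ID3* with 242 to 371 TPM, and none of these 3 ranges overlapped. *SMAD6*, at 38.9 to 47.0 TPM, and *BAMBI*, at 37.7 to 46.9 TPM, could not be ordered. *SMAD7* lay below both at 22.4 to 31.6 TPM, and *SMAD3*, the TGF-β branch SMAD, at 12.5 to 17.6 TPM. *TGFB1* (0.301 to 0.618 TPM) and *ID4* (0.253 to 0.391 TPM) were near the bottom and overlapped. *BMP7*, a BMP ligand, had 1 read in 1 library, suspended vehicle replicate 2, and 0 in the other 8, where a count of 0 allows up to 0.0625 to 0.0819 CPM (counts scaled to the library total) for counting error alone. It was the single gene of the 10 that did not pass the filter on low counts, so 9 were tested.

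**Figure D1:**
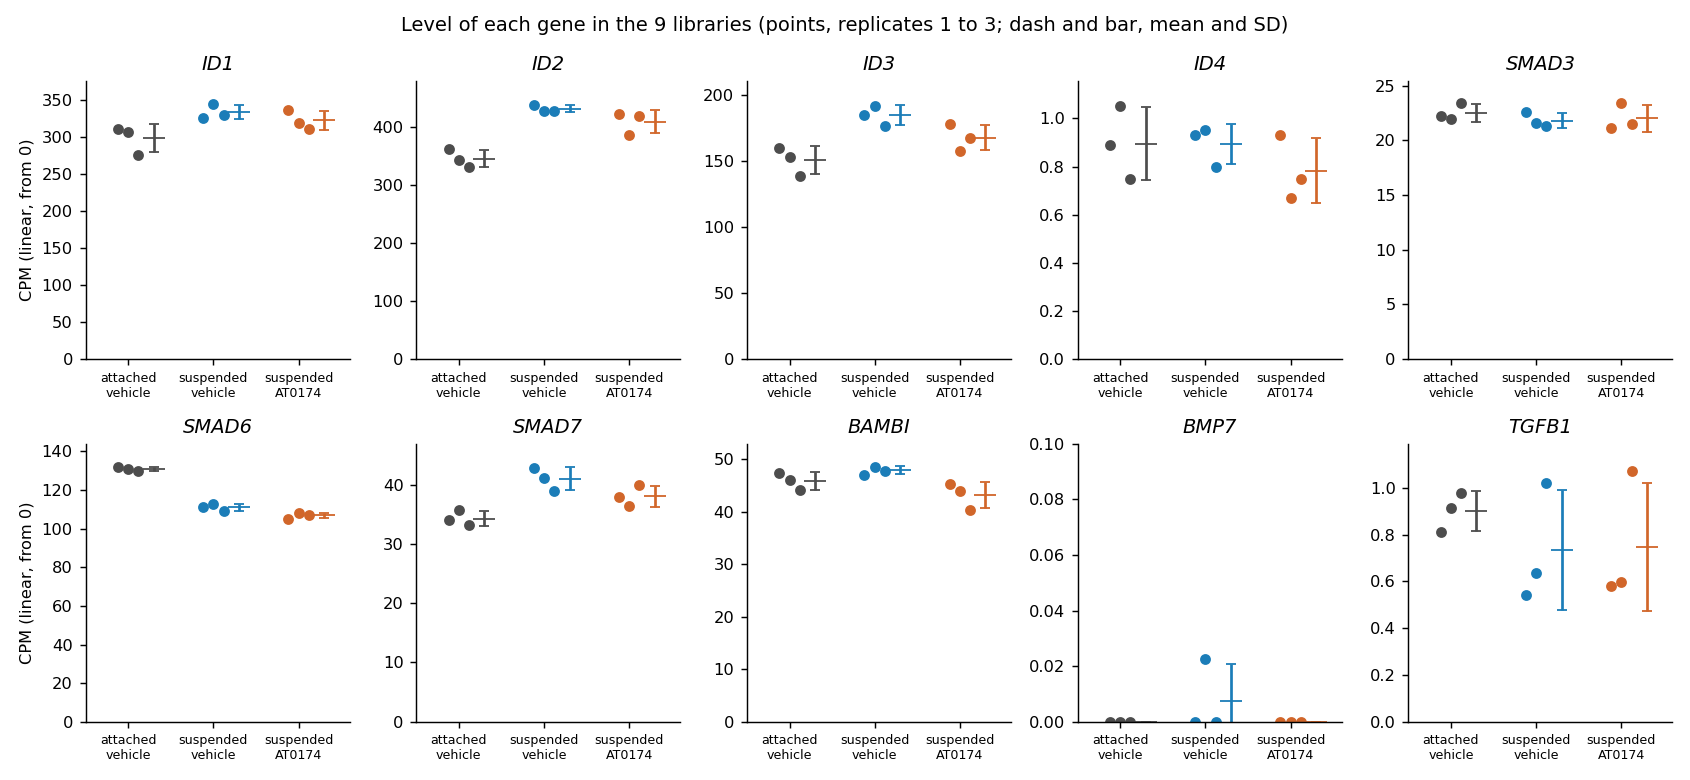
Level of the 10 genes as CPM scaled by library (vertical axes, linear and starting at 0) in the 3 conditions; points are libraries, and the dash with its bar is the mean ± SD of 3. *ID1*, *ID2*, *ID3* and *SMAD7* have their lowest mean in attached cells, *SMAD6* has its highest mean there, and *BMP7* has a value above 0 in 1 library.

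Suspension against attachment, both with vehicle, asks what loss of contact with the plastic does to these genes. In suspension *ID1*, *ID2*, *ID3* and *SMAD7* were higher by 1.12- to 1.25-fold and *SMAD6* was lower at 0.848-fold. Thus 5 of the 9 tested genes passed an adjusted p of 0.05 in edgeR's quasi-likelihood test, 4 higher and 1 lower, where 21.2% of all 15528 tested genes passed, 10.4% higher and 10.8% lower. For the same 5 genes the 3 suspended values did not overlap the 3 attached values, as for 38.1% of all tested genes. The median log2 fold change was 0.06 over the 9 genes and 0.00 over all tested genes. The 10 genes were chosen with earlier results of these data known, so these counts are a description. These are bulk libraries, so fewer cells that express a gene and less of its RNA per cell cannot be told apart.

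*ID2* had 362, 344 and 331 CPM in the attached libraries and 439, 428 and 429 CPM in the suspended vehicle libraries. Every suspended library was above every attached library, and the suspended values lay close together. The mean went from 346 ± 15.2 to 432 ± 5.99 CPM (SD, n = 3 each). That was a log2 fold change of 0.32, with a standard error (SE) of 0.0407 and an adjusted p of 3.69e-04.

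*ID3* had 160, 153 and 139 CPM in attached cells and 185, 192 and 177 CPM in suspended cells. Its log2 fold change was 0.29 (SE 0.0543, adjusted p = 0.00341), close to that of *ID2*. *ID1*, the classic BMP-induced member of the family, had 311, 306 and 276 CPM in attached cells and 325, 344 and 330 CPM in suspended cells. The gap between the highest attached and the lowest suspended library was small, and attached replicate 3 lay well below the other attached libraries. The log2 fold change of *ID1* was 0.16 (SE 0.0462, adjusted p = 0.0272). Its call was lost without attached replicate 3 (adjusted p = 0.0913), without suspended vehicle replicate 2 (0.0998), without suspended vehicle replicate 3 (0.058) and with counts rebuilt from TPM (0.104), while its log2 fold change stayed between 0.11 and 0.19.

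Attached replicate 3 had the highest mitochondrial share (9.32%). Among the attached libraries it also had the lowest level of *ID1*, *ID2*, *ID3*, *ID4*, *SMAD7*, *BAMBI* and, by a small margin, *SMAD6* (132, 131 and 130 CPM). It had the highest level of *SMAD3* and *TGFB1*. Without it, *ID2*, *ID3*, *SMAD7* and *SMAD6* still passed. With mitochondrial genes removed before scaling, an alternative chosen after seeing the data, the same count of 5 genes passed and the log2 fold changes of *ID1*, *ID2* and *ID3* were 0.16, 0.32 and 0.29.

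*ID4* was expressed at a far lower level than the rest of its family and did not pass. It had 0.889, 1.05 and 0.747 CPM in attached cells and 0.93, 0.952 and 0.797 CPM in suspended cells. The ranges overlapped and the log2 fold change was 0.00, with a 95% interval from −0.51 to 0.50, which includes a change as large as that of *ID2*, so such a change was not detectable at this depth. Reads of *ID2* and *ID4* may include some from genes annotated on the opposite strand, since the strand setting is not given in the sources used here.

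The inhibitory SMAD genes moved in opposite directions. *SMAD6*, whose product mainly blocks BMP signals, had 132, 131 and 130 CPM in attached cells and 111, 113 and 109 CPM in suspended vehicle cells. The attached values were almost equal and all lay above the suspended values. The mean fell from 131 ± 0.908 to 111 ± 2.02 CPM (SD, n = 3 each), with a log2 fold change of −0.24 (SE 0.0292, adjusted p = 2.76e-04). *SMAD7*, whose product blocks both branches and draws ubiquitin ligases to the receptors, had 34, 35.7 and 33.2 CPM in attached cells and 42.9, 41.2 and 39.0 CPM in suspended cells. Again no suspended library overlapped an attached library. The log2 fold change of *SMAD7* was 0.26 (SE 0.0503, adjusted p = 0.00424), and the 95% interval from 0.15 to 0.37 lay wholly above that of *SMAD6*, from −0.30 to −0.18. With counts rebuilt from TPM the *SMAD7* call was lost (log2 fold change 0.25, adjusted p = 0.0547).

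Within each library the TPM of *SMAD7* divided by that of *SMAD6* was 0.57, 0.535 and 0.482 in attached cells. It was 0.734, 0.728 and 0.722 in suspended vehicle cells and 0.742, 0.638 and 0.737 with AT0174. This ratio does not depend on the scaling between libraries, and each suspended library was above each attached library.

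*SMAD3* and *BAMBI* did not pass in suspension. *SMAD3* had 22.2, 21.9 and 23.4 CPM attached and 22.6, 21.6 and 21.3 CPM suspended, with a log2 fold change of −0.05 and a 95% interval from −0.16 to 0.07. *BAMBI*, a receptor decoy without a kinase domain, had 47.5, 46.0 and 44.2 CPM attached and 47.1, 48.6 and 47.8 CPM suspended, with a log2 fold change of 0.06 and an interval from −0.04 to 0.16. The ranges overlapped for both genes, and both intervals lie below the fold changes of *ID2* and *ID3*.

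*TGFB1*, the ligand that gives the TGF-β branch its name, had 0.81, 0.913 and 0.978 CPM in attached cells and 0.543, 0.635 and 1.02 CPM in suspended cells. Suspended vehicle replicate 3 was above all attached libraries and the other suspended libraries were below them. The log2 fold change was −0.29 with a 95% interval from −0.97 to 0.39 (adjusted p = 0.558). With 21 to 45 reads per library in these 6 libraries, a change of either sign within that interval could not be told from none, and *TGFB1* overlaps genes on the opposite strand.

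**Figure D2:**
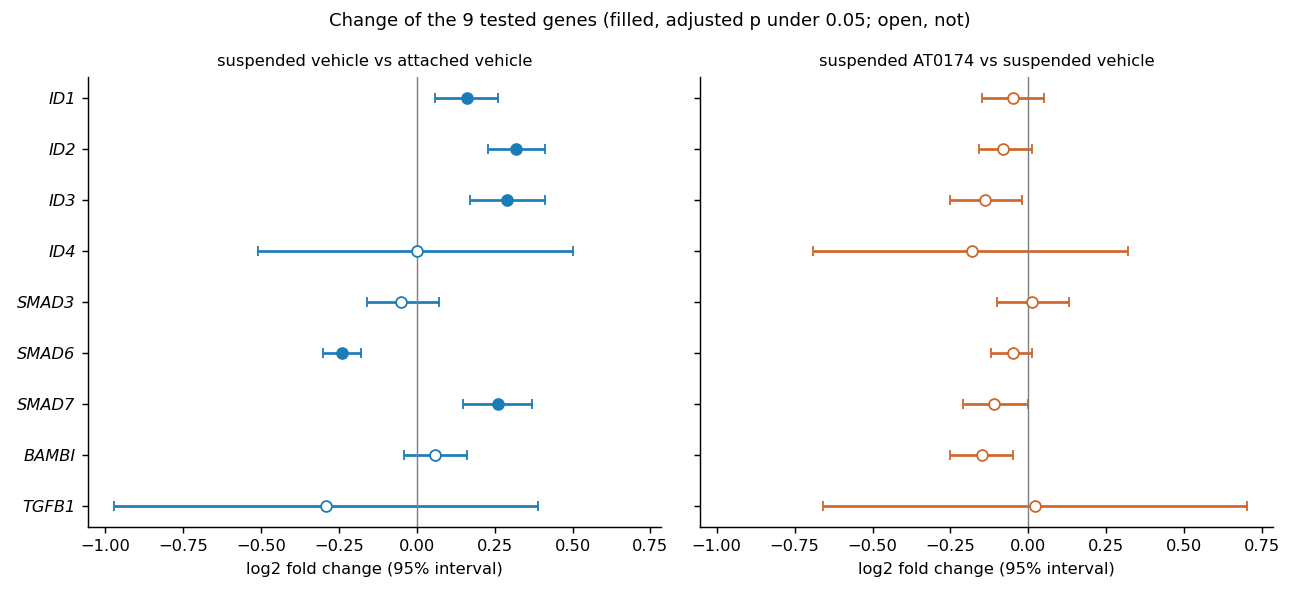
Log2 fold change (horizontal axes) of the 9 tested genes with its 95% interval, left for suspended against attached cells with vehicle and right for AT0174 against vehicle in suspended cells; filled points have an adjusted p under 0.05. On the left *ID1*, *ID2*, *ID3* and *SMAD7* lie above 0 and *SMAD6* below, and on the right no point is filled.

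AT0174 against vehicle, both in suspension, asks how these genes differ with the compound. Whether a difference comes from blocking TDO2 and IDO1 or from another effect of AT0174 was not tested. None of the 9 tested genes passed edgeR's adjusted threshold, against 0.779% of all tested genes (121). At an unadjusted p of 0.05 there were 2, *BAMBI* and *ID3*, where 9.02% of all tested genes reached that level. DESeq2 and limma-voom also called 0. Of the 9 log2 fold changes 7 were below 0, and their median was −0.08 beside 0.00 for all tested genes, of which 49.3% were below 0. Both comparisons share the suspended vehicle libraries, so a high or low value there moves the 2 log2 fold changes of a gene in opposite directions.

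*BAMBI* had the smallest unadjusted p. It had 45.3, 43.9 and 40.4 CPM with AT0174 against 47.1, 48.6 and 47.8 CPM with vehicle, without overlap. The log2 fold change was −0.15 (SE 0.047, adjusted p = 0.263), and the adjusted p ranged from 0.142 to 0.634 over 18 alternatives. *ID3* had 178, 158 and 168 CPM with AT0174 against 185, 192 and 177 CPM with vehicle. AT0174 replicate 1 lay within the vehicle range. Its log2 fold change was −0.14 (SE 0.0539, adjusted p = 0.446), and it passed in 1 of 18 alternatives, the fit with no filter on low counts.

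*ID2* had 423, 387 and 420 CPM with AT0174, all below the vehicle values, and a log2 fold change of −0.08 (95% interval −0.16 to 0.01). *SMAD6* had 105, 108 and 107 CPM, also all below the vehicle values, and a log2 fold change of −0.05 (interval −0.12 to 0.01). Together with *BAMBI* that made 3 of the 9 genes without overlap, where 15.4% of all tested genes had none. *ID1*, with 336, 319 and 311 CPM, and *SMAD7*, with 38.0, 36.4 and 39.9 CPM, overlapped the vehicle values. Their log2 fold changes were −0.05 (interval −0.15 to 0.05) and −0.11 (interval −0.21 to 0.00). *SMAD3* had 21.1, 23.4 and 21.5 CPM, with an interval of its log2 fold change from −0.10 to 0.13. *ID4*, with 0.932, 0.669 and 0.748 CPM, and *TGFB1*, with 0.58, 0.597 and 1.07 CPM, had intervals that reached beyond 0.30 on either side of 0. For the other 7 genes the 95% intervals of the log2 fold change all lay between −0.25 and 0.13.

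The order of the 3 conditions follows from setting AT0174-treated suspended cells against attached vehicle cells, which differ in both culture and agent. For *ID1*, *ID2*, *ID3* and *SMAD7* the AT0174 mean lay between the attached and the suspended vehicle means. *ID2* was still above attached cells (log2 fold change 0.25, SE 0.0407, adjusted p = 0.00131), as was *SMAD7* (0.15, SE 0.0503, adjusted p = 0.0444). *ID1* (0.11, adjusted p = 0.0982) and *ID3* (0.16, adjusted p = 0.0559) did not pass. *SMAD6* went one way through the conditions, and its AT0174 level was the lowest (log2 fold change −0.29, SE 0.0291, adjusted p = 4.10e-05). That made 3 of 9 genes, where 24.0% of all tested genes passed. The *SMAD7* call held in 9 of 18 alternatives and was lost without attached replicate 1 or 3, suspended vehicle replicate 2 or AT0174 replicate 1 or 3, and *ID3* passed in 6 of 18, among them the fits without attached replicate 1 and without AT0174 replicate 2. The neighbours suspended vehicle and AT0174 were not separated for any of the 9 genes. In TPM the order of the 3 means was the same for 6 of the 9 genes, and it differed for *ID4*, *SMAD3* and *TGFB1*.

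The transcript estimates show which products make up these levels. TPM is not rescaled by library here. Over all tested genes the median log2 ratio of TPM in suspended to attached vehicle cells was 0.102. A rise of that size in TPM is therefore no more than the median shift of all tested genes. *ID1* came mainly from ID1-202, with 423 ± 42.0 TPM attached and 499 ± 21.4 TPM suspended (SD, n = 3 each), while ID1-201 had 58.4 ± 0.995 and 78.8 ± 2.91 TPM. *ID2* was split between ID2-202, with 418 ± 8 and 538 ± 49.8 TPM, and ID2-203, with 246 ± 22.6 and 340 ± 20.1 TPM. The shares of these transcripts in their gene were alike in both conditions, 62.3% and 60.3% for ID2-202. *ID3* was mostly ID3-201, at 91.3% ± 0.463 of the gene attached and 89.2% ± 0.328 suspended. The small rest included ID3-203, which has no annotated coding sequence and had 14.7 ± 0.912 TPM attached and 27.7 ± 1.58 TPM suspended.

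*SMAD6* was split between the coding transcript SMAD6-201, with 22.4 ± 1.09 TPM attached and 21.3 ± 0.667 TPM suspended, and SMAD6-205, which has no annotated coding sequence, with 18.9 ± 0.147 and 16.8 ± 0.582 TPM. With AT0174 they had 20.4 ± 0.715 and 15.4 ± 0.683 TPM. The ranges of SMAD6-205 did not overlap between attached and suspended vehicle cells, while those of SMAD6-201 did. Their shares in the gene were alike in both conditions. SMAD6-201 made up 48.3% ± 2.68 attached and 49.7% ± 0.845 suspended, and SMAD6-205 40.6% ± 0.628 and 39.1% ± 1.49. The upward median shift of TPM in suspension also makes falls in TPM look smaller, so a fall limited to SMAD6-205 is not shown. *SMAD7* came from SMAD7-208, with 10.1 ± 2.08 TPM attached and 12.8 ± 0.654 TPM suspended, from SMAD7-201, with 7.22 ± 0.276 and 10.2 ± 0.444 TPM, and from the intron-retaining SMAD7-202. For *SMAD3* the estimated share of SMAD3-213 ran from 0 to 53.9% over the libraries, so its transcripts cannot be compared.

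**Figure D3:**
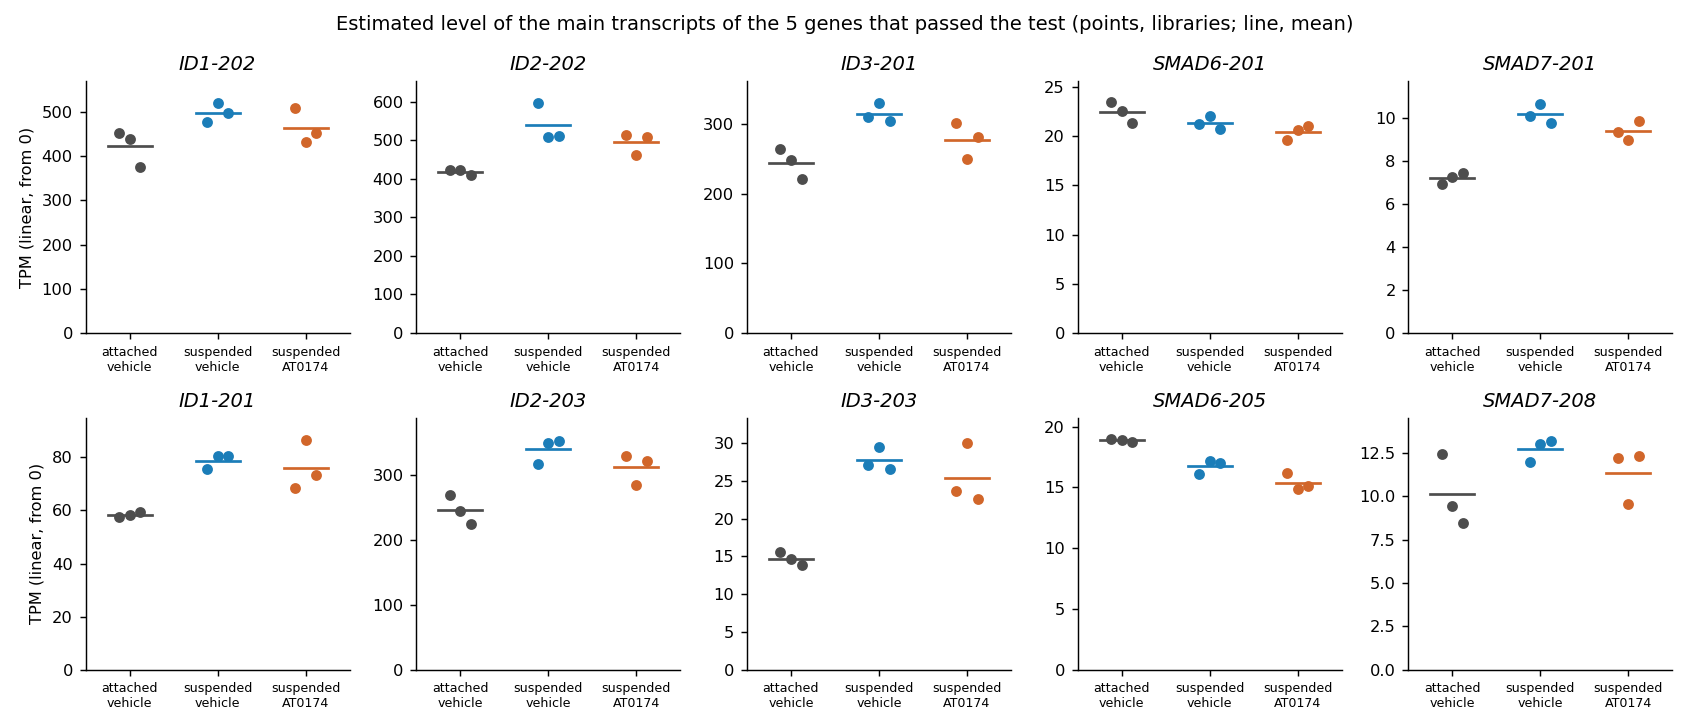
Estimated level (vertical axes, TPM from 0) of the main transcripts of the 5 genes that passed in suspension against attachment; points are libraries and lines are means of 3. Between attached and suspended vehicle libraries SMAD6-201 and SMAD7-208 overlap and the other 8 transcripts do not. SMAD6-201 and ID1-202 vary more within a condition than their neighbours SMAD6-205 and ID1-201 do among attached libraries.

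Around these genes, 151 other genes of the pathway in 10 lists were read from the same fit, and 90 of them were tested. In suspension against attachment 31 passed, 14 higher and 17 lower, or 34.4% beside 21.2% of all tested genes. The lists were written with earlier results of these data known, so these counts are a description.

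Of 5 tested genes in the list of BMPs and GDFs 4 passed, 1 higher and 3 lower, with a median log2 fold change of −0.19. That list includes *BMP1*, a procollagen protease named with the BMPs and not a ligand, without which 3 of 4 passed, 1 higher and 2 lower. *GDF15*, a stress-induced distant member of the family, rose from 15.1 ± 0.742 to 25.4 ± 1.15 CPM (log2 fold change 0.75, adjusted p = 3.51e-06). *BMP4*, a ligand that induces ID genes, fell by 0.19 on the log2 scale (43.0 to 37.8 CPM, adjusted p = 0.0113), *BMP1* fell by 0.33 and *AMH*, which signals through the BMP SMADs, fell by 0.59. Of 5 tested TGF-β, activin and nodal ligand genes 2 passed, both lower. *TGFB3*, at 221 ± 3.32 CPM attached the leading TGF-β ligand gene of these cells, fell by 0.23 (adjusted p = 7.36e-04). *TGFB2* fell by 1.52 from 1.46 ± 0.296 to 0.511 ± 0.141 CPM (adjusted p = 0.0033). Among genes for storing and freeing TGF-β, 4 of 8 passed: *LTBP1* and *LTBP4*, which tether latent TGF-β to the matrix, fell by 0.31 and 0.34, and *FURIN*, which cleaves TGF-β precursors, and *THBS1*, which can activate latent TGF-β, had log2 fold changes of 0.25 and 0.23.

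Of 11 tested receptor and co-receptor genes 3 passed, 1 higher and 2 lower, and the median log2 fold change was 0.03. *TGFBR2*, the type II receptor for TGF-β, fell by 0.86 from 6.20 ± 0.363 to 3.41 ± 0.239 CPM (adjusted p = 0.00365). *BMPR2*, the type II receptor for BMPs, had a log2 fold change of 0.15 (103 to 114 CPM, adjusted p = 0.0294), and the BMP co-receptor gene *RGMB* had one of −0.11 (adjusted p = 0.0454) whose call held in 4 of 18 alternatives. The other type II receptor genes tested did not pass, with log2 fold changes of 0.15 for *ACVR2B* and −0.08 for *ACVR2A*. Nor did any type I receptor gene tested, with log2 fold changes of 0.09 for *ACVR1*, 0.05 for *BMPR1A*, 0.03 for both *ACVR1B* and *TGFBR1*, and −0.29 for the low *ACVR1C*. *ACVRL1*, *BMPR1B* and *AMHR2* did not pass the filter on low counts.

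Of the other signalling SMADs *SMAD2* alone passed, with a log2 fold change of 0.14 (80.8 to 89.2 CPM, adjusted p = 0.0199). The BMP branch genes *SMAD5* (0.10, adjusted p = 0.0793), *SMAD1* (0.07, adjusted p = 0.356) and the low *SMAD9* (−0.18, adjusted p = 0.771) did not pass, nor did *SMAD4* (−0.09, adjusted p = 0.177). Of 13 intracellular inhibitors and co-repressors 5 passed, 4 higher and 1 lower, at a median of 0.03. The risers with the smallest p were *LDLRAD4*, which sequesters SMAD2 and SMAD3 (log2 fold change 0.34, adjusted p = 2.73e-04), the ubiquitin ligase gene *WWP1* (0.23, adjusted p = 0.00157), the SMAD co-repressor gene *SKIL* (0.20, adjusted p = 0.00435) and *FKBP1A*, whose product keeps type I receptors inactive (0.16, adjusted p = 0.0274). Of 6 tested extracellular antagonists 2 passed. *NBL1* had a log2 fold change of 0.35 (106 to 135 CPM, adjusted p = 1.47e-04) and shares exons with a readthrough gene, and *CRIM1*, a membrane protein that binds BMPs, fell by 2.14 from 3.23 ± 0.424 to 0.736 ± 0.224 CPM (adjusted p = 3.48e-04).

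None of 11 tested BMP targets outside the 10 genes passed edgeR's test in suspension, where 21.2% of all tested genes did. Of the 11, 3 had an unadjusted p under 0.05, where 5290 of all 15528 did, and their median log2 fold change was −0.07. Of 23 tested TGF-β targets 9 passed, 4 higher and 5 lower, with a median of −0.15. The 4 with the smallest p were the transcription factor genes *JUNB* (log2 fold change 0.57, adjusted p = 4.20e-05) and *BHLHE40* (0.32, adjusted p = 6.46e-05), the cell cycle inhibitor gene *CDKN1A* (0.36, adjusted p = 9.37e-05) and the metalloproteinase inhibitor gene *TIMP1*, which fell by 0.29 (adjusted p = 5.74e-04). Of the basic helix-loop-helix genes whose products pair with ID proteins, *TCF3* fell by 0.14 from 288 to 262 CPM (adjusted p = 0.00605), *TCF12* had a log2 fold change of 0.04 (adjusted p = 0.468) and *TCF4*, at 1.75 CPM in attached cells, one of 0.01 (adjusted p = 0.976).

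Several of these calls rested on single libraries. In fits without 1 library the call of *RGMB* was lost each time, that of *BMP4* without suspended vehicle replicate 3, and that of *THBS1* without suspended vehicle replicate 2. *SMAD2* was lost without attached replicate 2 or 3 or suspended vehicle replicate 3, and *BMPR2* without attached replicate 1 or 2 or suspended vehicle replicate 1 or 2. *AMH* was lost without attached replicate 3 or suspended vehicle replicate 1 or 2, and *BMP1* without attached replicate 3 or suspended vehicle replicate 1. *FKBP1A* and *LTBP4* were lost without attached replicate 3 or any suspended vehicle replicate, and *LTBP4* also without AT0174 replicate 3. Of the counted genes not named above, *TGIF2*, the lower gene among the intracellular inhibitors and co-repressors, passed in 7 of 18 alternatives. The lower TGF-β targets *NEDD9* and *PDGFB* passed in 11 and 14 of 18. With counts rebuilt from TPM the calls of *CRIM1*, *TGFBR2*, *TGFB2*, *LTBP1* and *TCF3* were lost as well, while *GDF15*, *TGFB3*, *FURIN*, *NBL1*, *JUNB*, *BHLHE40*, *CDKN1A*, *TIMP1*, *LDLRAD4*, *WWP1* and *SKIL* passed in 18 of 18 alternatives.

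**Figure D4:**
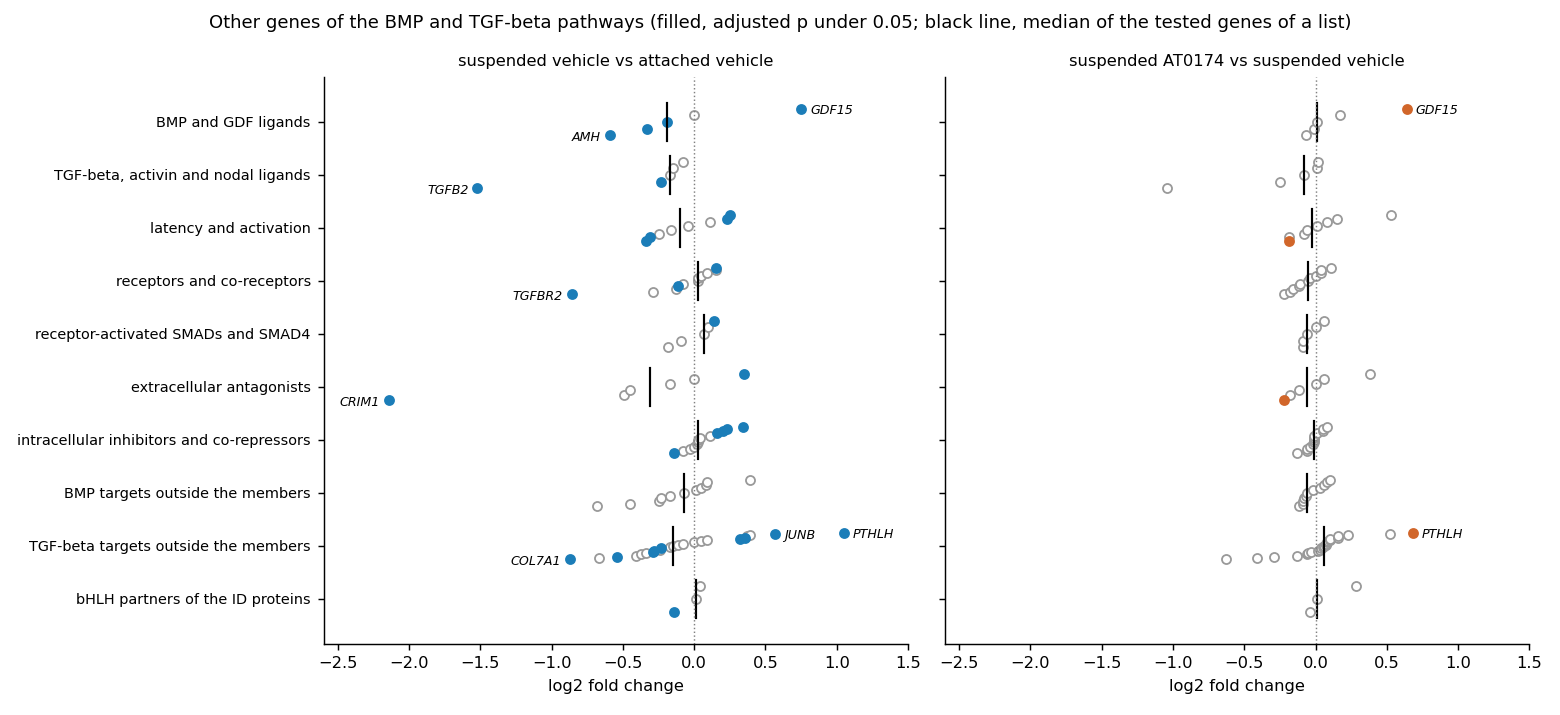
Log2 fold change (horizontal axes) of the tested genes of 10 pathway lists, left for suspended against attached cells with vehicle and right for AT0174 against vehicle in suspended cells; each point is a gene, filled where the adjusted p is under 0.05, and the black line is the median of a list. On the left 31 points are filled, with *CRIM1*, *TGFB2*, *COL7A1* and *TGFBR2* furthest below 0 and *PTHLH* and *GDF15* furthest above, and on the right 4 points are filled.

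With AT0174 in suspended cells 4 of the 90 genes passed, 2 higher and 2 lower, or 4.44% beside 0.779% of all tested genes. *GDF15* had 40.2, 40.6 and 38.1 CPM with AT0174 against 26.5, 24.2 and 25.4 CPM with vehicle, without overlap (log2 fold change 0.64, adjusted p = 1.81e-05), and it passed in 18 of 18 alternatives. *PTHLH*, the gene of parathyroid hormone-related protein and a TGF-β target in breast cancer cells, had 13, 10.8 and 11.7 CPM against 7.65, 8.84 and 5.71 CPM (log2 fold change 0.68, adjusted p = 0.0381), a call that held in 11 of 18 alternatives. *NBL1* fell by 0.22 from 135 ± 3.00 to 116 ± 5.41 CPM (adjusted p = 0.0184, held in 14 of 18), and *FURIN* fell by 0.19 from 84.8 ± 1.57 to 74.2 ± 3.62 CPM (adjusted p = 0.0445, held in 8 of 18). The *PTHLH* call was lost without attached replicate 2, suspended vehicle replicate 1 or 3 or any AT0174 replicate, that of *NBL1* without suspended vehicle replicate 3 or AT0174 replicate 2 or 3, and that of *FURIN* in every fit without 1 library except that without AT0174 replicate 3. No receptor gene passed. *BMPR2* had a log2 fold change of −0.16 (adjusted p = 0.161) and *TGFBR1* one of −0.22 (adjusted p = 0.258), and those of *BMPR1A*, *ACVR1*, *ACVR1B*, *ACVR1C*, *TGFBR2*, *ACVR2A* and *ACVR2B* lay between −0.12 and 0.11. Nor did a signalling SMAD pass, with −0.09 for both *SMAD5* and *SMAD2*, 0.06 for *SMAD4*, 0.00 for *SMAD1* and −0.06 for *SMAD9*. *TCF3*, *TCF12* and *TCF4* had log2 fold changes of 0.01, −0.04 and 0.28 and did not pass.

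For each of the 5 genes that passed, the tested gene outside the 10 with the most similar pattern over the 9 libraries was found by the smallest root mean square difference of centred log2 CPM. *STOM* was nearest to *ID1* (difference 0.0169, where *ID1* itself varied by 0.0878 around its mean), with 318 ± 18.2, 351 ± 8.50 and 340 ± 9.69 CPM in attached, suspended vehicle and AT0174 cells (SD, n = 3 each). *NRIP1* was nearest to *ID2* (0.0333 against 0.145), *ATXN1* to *ID3* (0.0398 against 0.137) and *TP53RK* to *SMAD7* (0.0351 against 0.116). *ZKSCAN8* was nearest to *SMAD6* (0.0305 against 0.127), with 28.8 ± 0.253, 24.8 ± 0.336 and 23.7 ± 0.665 CPM, the same order of conditions. These neighbours are a description of pattern over 9 libraries among 15528 genes.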

How the data were processed

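RNA was measured by bulk RNA-seq in 9 MDA-MB-453 libraries, 3 per condition, which the series calls biological triplicates. Per the submitters' processing notes, reads were demultiplexed with bcl2fastq 2.20.0.422, trimmed with Cutadapt 3.4 in Trim Galore 0.6.7, aligned with STAR 2.7.9a to GRCh38 and quantified with Salmon 1.10.1. The authors deposited estimated counts per gene, summed from transcripts and not normalized, and transcript TPM values, which the authors made with Salmon. The study's methods and the labels name different library kits. Transcript names and positions are from GENCODE release 44 on GRCh38, matched by identifier.

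Estimated counts were rounded, filtered with filterByExpr (15528 genes kept) and scaled by TMM. All 9 libraries entered 1 quasi-likelihood fit in edgeR 4.0.16 (R 4.3.3) with condition as the term, and p-values were adjusted by Benjamini-Hochberg over all tested genes (threshold 0.05, two-sided). CPM uses TMM-scaled library sizes. TPM was used to compare genes and transcripts. No 2 replicates agreed within sampling noise (chi-square per degree of freedom 3.2 to 20.95). The procedure was tested on simulated data. The 10 genes, the pathway lists, the tests and the alternatives were chosen with earlier results of these data known. The text names all 10 genes, the genes of each list that passed (up to the 4 with the smallest p), the type I and II receptors, the signalling SMADs, the ID partners and the nearest gene of each of the 10 that passed. *COL7A1* is named in a figure for its value, and *TGIF2*, *NEDD9* and *PDGFB* are named because their calls were lost in several alternatives. The alternatives were DESeq2 1.42.0 size factors, the DESeq2 test, limma-voom (limma 3.58.1), no filter, at least 10 counts in every library, a fit on the 6 libraries compared, blocking by replicate number, TPM scaled back to counts, leaving out each library, TPM for the order of conditions and, added later, no mitochondrial genes. Intervals and limits cover counting error or the spread of these libraries only. Protein sequences were not used here.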

Additional observations from a re-analysis of the deposited data

How the results depend on the processing

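Of 486 values of the 9 tested genes under 18 alternatives in 3 comparisons, 452 kept direction and side of the threshold, 14 lost the call, 8 gained it and 12 changed sign, the last all for genes that did not pass. *ID2*, *ID3* and *SMAD6* passed in suspension against attachment under all 18, *SMAD7* under 17 and *ID1* under 14. Replicate numbers did not pair libraries (deviation correlations −0.065 to 0.053). With a replicate block the members called were 5, 0 and 3, as without it, except that *ID3* passed (adjusted p = 0.0351) in place of *SMAD7* (0.0637) for AT0174-treated suspended against attached cells, and the block changed no other call among the 10 genes.

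Counts rebuilt from TPM were scaled to each library total. In suspension against attachment they gave 1396 genes for 3297, 3 of the 9 genes for 5 and 13 pathway genes for 31. For AT0174 against vehicle they gave 31 genes for 121 and 1 pathway gene for 4, and for AT0174-treated suspended against attached cells 1802 genes for 3724 and 14 pathway genes for 27. With no filter on low counts 499 genes and 1 of the 9 genes passed for AT0174 against vehicle, and 5 of the 9 instead of 3 against attached cells. The DESeq2 test called 239 genes for AT0174 against vehicle. The cause of these shifts was not tested.

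Leaving out 1 library gave 1935 to 3260 genes in suspension against attachment (1935 without attached replicate 3 and 1951 without suspended vehicle replicate 2), 63 to 128 for AT0174 against vehicle (63, 68 and 70 without AT0174 replicates 1, 2 and 3, and 66 and 65 without suspended vehicle replicates 1 and 3) and 2239 to 3680 against attached cells (2381 without attached replicate 3 and 2239 without AT0174 replicate 1). Of the 9 genes 4 to 5, 0 and 2 to 4 passed, and of the pathway genes 23 to 32, 1 to 3 and 17 to 28 in the same order. Pathway counts moved by over 1.5 times to 17 against attached cells without AT0174 replicate 1, and for AT0174 against vehicle to 1 without suspended vehicle replicate 3 or AT0174 replicate 2 and to 2 without attached replicate 2, suspended vehicle replicate 1 or AT0174 replicate 1 or 3.

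Among the values that changed sign, those of *ID4* in suspension were 0.006 with limma-voom, 0.002 with no filter, 0.03 with counts rebuilt from TPM, and from −0.12 to 0.13 when 1 library was left out. For AT0174 against vehicle *SMAD3* was −0.06 with counts rebuilt from TPM, and −0.03 to 0.04 when 1 library was left out, and *TGFB1* was −0.05 with counts rebuilt from TPM, and −0.33 to 0.34 when 1 library was left out. Depth limits *ID4*, *TGFB1* and *BMP7*, for which only large changes could be seen.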
